A study of Mus musculus with 4 samples.

Results

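Expression of the tumour necrosis factor (TNF) family was described for 9 genes in cells of the mouse heart: the ligands Tnf, Ltb, Tnfsf10, Tnfsf12 and Tnfsf13b and the receptors Tnfrsf1a, Tnfrsf1b, Tnfrsf9 and Fas. The genes were taken by symbol, and all 9 were found among the 32285 genes listed with both matrices. The measurements come from CITE-seq, in which transcripts and antibody tags are counted in the same cells. One library came from 4 pooled hearts of C57BL6J mice that received rat IgG (isotype), and the other from 4 pooled hearts of C57BL6J mice that received an agonist antibody against CD40, itself a receptor of the TNF family (anti-CD40). Dose, time after treatment and age are not given in the sources used here. Titles and protocols name a sort on CD45 without DAPI, while the series text names DRAQ5 without DAPI, and only the latter gate would admit cells that lack CD45.

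Ligands of the TNF family are mostly trimeric membrane proteins, some of which are cut off the cell surface, and they act by clustering receptors on the target cell. Receptors with a death domain, such as Tnfrsf1a and Fas, can recruit the caspase-8 machinery, whereas Tnfrsf1b, Tnfrsf9 and CD40 bind TRAF adaptors and lead to NF-κB. In the heart, macrophages are a known source of TNF, and cardiac muscle, endothelium and leukocytes carry its receptors.

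With 1 library per treatment there was no replicate, no test and no p-value, so each value describes these 2 libraries. A filter of 200 genes per cell and less than 10% of unique molecular identifiers (UMIs) from mitochondria left 2558 of 4908 isotype barcodes and 4278 of 7087 anti-CD40 barcodes, of which 6 occurred in both. Median depth was 5446 UMIs per isotype cell and 8284.5 per anti-CD40 cell. Cell types were gated on at least 3 distinct markers of 1 class, and droplets with markers of 2 classes, 475 isotype and 642 anti-CD40, were kept apart. The gates held 1064 isotype and 2768 anti-CD40 phagocytes (macrophages and monocytes), 130 and 209 neutrophils, 138 and 139 natural killer (NK) cells, 436 and 18 B cells, 38 and 157 T cells, 54 and 15 conventional dendritic cells, 48 and 73 endothelial cells, and 37 and 52 fibroblasts. Of the phagocytes, 54 in the isotype and 171 in the anti-CD40 library lay within 1.5 times of the marker threshold.

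Levels are given as CPM, the UMIs of a gene scaled to 1000000 UMIs of the cell type, and are compared within a gene only. Brackets hold exact 95% intervals, Poisson for levels and conditional binomial for ratios, which cover counting error alone and not the spread between mice. Ratios divide the anti-CD40 level by the isotype level and were computed where both libraries had at least 50 cells, that is in phagocytes, neutrophils and NK cells. Scaling by trimmed means (TMM) instead of totals raises every ratio by 0.29 in phagocytes, 0.35 in neutrophils and 0.22 in NK cells on the log2 scale. Markers of another class inside a gate are given beside the results they could touch. In such sums, a different level per cell and a different mix of cells inside the gate cannot be told apart.

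In phagocytes, Tnfsf10 and Fas were higher in the anti-CD40 library and Tnfsf12, Tnfrsf1b and Ltb were lower, whereas Tnf, Tnfsf13b and Tnfrsf1a lay within 1.5-fold. That is 2 of 8 members past 1.5-fold higher and 3 of 8 lower, among members with at least 30 UMIs in the library where they were higher. Over all 11277 genes measured that way in phagocytes, 11.3% were past 1.5-fold higher and 23.4% past 1.5-fold lower. With TMM scaling the same 5 members were called, against 2308 higher and 1470 lower genes overall in place of 1277 and 2636. The median log2 ratio of the 8 members was -0.11, as was that of all genes tested (-0.11). Tnfrsf9, the remaining member, had 0 UMIs in isotype and 22 in anti-CD40 phagocytes. In Leiden clustering without gates, different phagocyte clusters held most cells of each library. The largest, cluster 0, had 671 isotype and 36 anti-CD40 cells, whereas clusters 1 to 4 had 2 and 671, 11 and 549, 18 and 413, and 0 and 405 cells. The 2 libraries were clustered together with no correction for library. A split of clusters by library therefore cannot show whether the makeup of the phagocytes differs.

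**Figure D1:**
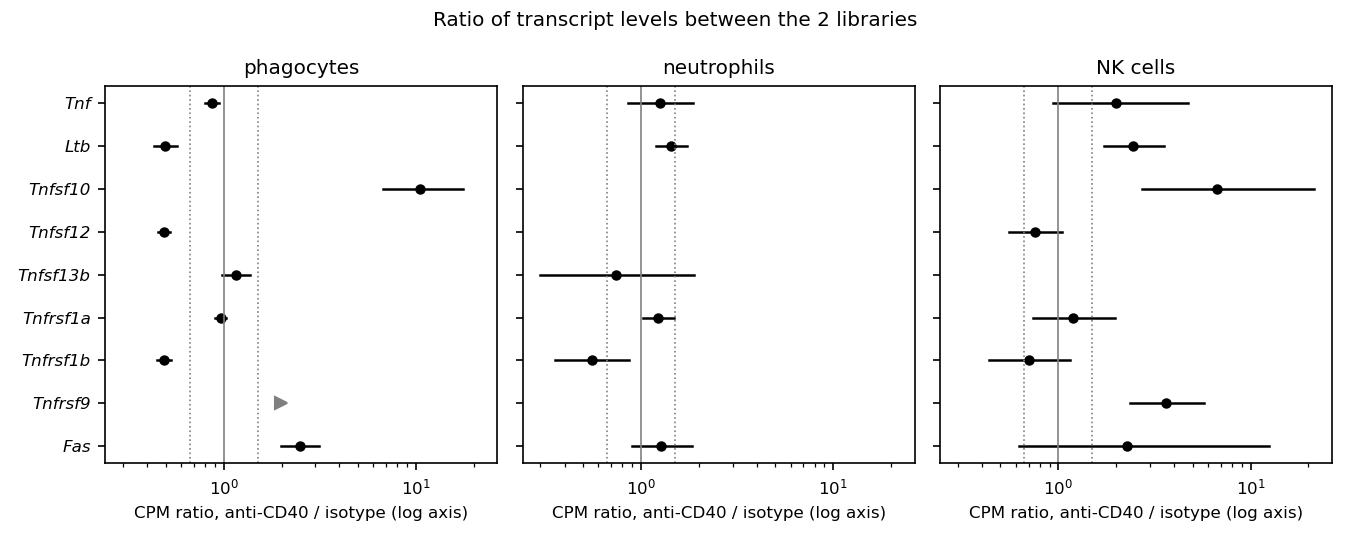
Ratio of the transcript level (CPM) in the anti-CD40 library to that in the isotype library for 9 TNF family genes in phagocytes, neutrophils and NK cells, on a log axis. Points are ratios, bars exact 95% counting intervals, the solid line a ratio of 1, dotted lines 1.5-fold, and the grey arrow the lower bound for Tnfrsf9; in phagocytes Tnfsf10 (10.6) and Fas (2.48) lie to the right and Ltb, Tnfsf12 and Tnfrsf1b between 0.49 and 0.50.

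Tnf (chr17:35199367-35202007, GRCm38) encodes the founding cytokine of the family, which drives inflammation and can kill cells. In the isotype library its level was 106 CPM (76.4 to 144) in neutrophils, 80.7 CPM (74.9 to 86.8) in phagocytes and 74.1 CPM (57.8 to 93.4) in conventional dendritic cells, and these 3 intervals overlapped. T cells followed at 52.1 CPM, then B cells at 16.7 CPM and NK cells at 14.8 CPM. Fibroblasts held 1 UMI and endothelial cells 0 UMIs, with an upper limit of 16.1 CPM in the latter. In the anti-CD40 library neutrophils were again first at 133 CPM (107 to 164) and phagocytes second at 70.3 CPM (67.4 to 73.2), now without overlap of their intervals. At least 50% of neutrophil Tnf UMIs lay in the top 4 of 130 isotype and the top 13 of 209 anti-CD40 cells. The Poisson intervals of neutrophils are therefore too narrow. At 1000 UMIs per cell, 6.09% of isotype and 10.0% of anti-CD40 neutrophils had a Tnf UMI, against 8.15% and 6.45% of phagocytes. Phagocyte markers in the neutrophil gate were at 2507 and 3406 CPM. Myeloid cells thus headed the order of CPM in both libraries.

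Over all phagocytes, the ratio of Tnf was 0.87 (0.80 to 0.95), and it turned above 1 with TMM scaling (1.07) and with median-of-ratios scaling (1.08). No direction can therefore be given for Tnf over all phagocytes. The transcript was concentrated in few cells: the top 74 of 1064 isotype phagocytes and the top 185 of 2768 anti-CD40 phagocytes held at least 50% of its UMIs, with up to 15 and 28 UMIs in a single cell. At 1000 UMIs per cell, 8.15% of isotype (6.47 to 10.1) and 6.45% of anti-CD40 phagocytes (5.53 to 7.46) had a Tnf UMI, against 2.04% of isotype B cells, whose median depth was 4346.5 UMIs. Unthinned shares were 30.1% and 34.6%, at median depths of 6472 and 9601 UMIs.

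The phagocytes were divided further by subset markers. Resident macrophages had 2 of 8 members past 1.5-fold higher (Tnfsf10 and Fas) and 3 lower (Ltb, Tnfsf12 and Tnfrsf1b), beside 10.4% and 20.4% of 10291 genes. Classical monocytes had 4 of 8 higher (Tnf, Ltb, Tnfsf10 and Tnfsf13b) and 2 lower (Tnfsf12 and Tnfrsf1b), beside 21.3% and 17.4% of 6266 genes. Of the 4 higher, Ltb rested on 9 and 59 UMIs, a ratio of 1.99 (0.98 to 4.56) whose interval spans 1. Tnfsf10 rested on 2 isotype UMIs and Tnfsf13b on 1. The Tnf level of resident macrophages, gated on genes such as Lyve1, Timd4 and Folr2, was 82.9 CPM (483 UMIs) with isotype and 58.1 CPM (510 UMIs) with anti-CD40, a ratio of 0.70 (0.62 to 0.80). Classical monocytes, gated on genes such as Ly6c2 and Chil3, had 31.6 CPM (29 UMIs in 79 cells) and 74.7 CPM (226 UMIs in 194 cells), a ratio of 2.36 (1.60 to 3.61). Classical monocytes therefore had the lowest Tnf of 5 subsets in the isotype library and stood above resident macrophages in the anti-CD40 library. At 1000 UMIs per cell, 6.41% (2.11 to 14.3) of isotype and 9.33% (5.62 to 14.3) of anti-CD40 classical monocytes had a Tnf UMI. Resident macrophages had 7.56% (5.52 to 10.0) and 5.64% (3.98 to 7.73). In both subsets the intervals of the libraries overlapped. Fos, Jun, Egr1, Ier2 and Nr4a1, early genes that tissue digestion is known to induce, were lower in the anti-CD40 library in both subsets, with Fos 2.05-fold lower in resident macrophages and 2.71-fold lower in classical monocytes. These genes were chosen after their values were seen, and their part in the Tnf values was not tested.

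Ltb (chr17:35194507-35196305), which lies 3062 bases from Tnf, encodes lymphotoxin beta, the membrane anchor of lymphotoxin heterotrimers. It was a gene of B cells, T cells and neutrophils. Isotype B cells had 893 CPM (853 to 935), T cells 514 CPM (431 to 607) and neutrophils 415 CPM (353 to 485), the last with overlap of the T cell interval. In the anti-CD40 library neutrophils had 596 CPM (539 to 657), T cells 492 CPM (449 to 538) and NK cells 156 CPM (134 to 181), and the 18 B cells held 143 UMIs, or 1054 CPM.

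Phagocytes had Ltb at 36.2 CPM in isotype and 17.9 CPM in anti-CD40 cells, 2.02-fold lower (1.76 to 2.32). B cell markers moved with it: all 10 listed B cell markers had UMIs in phagocytes of both libraries, and they summed to 416 CPM with isotype and 33.2 CPM with anti-CD40. In isotype phagocytes there were 87.0 Ltb UMIs per 1000 B cell marker UMIs (77.7 to 97.1), and in isotype B cells 85.7 (81.8 to 89.8). In anti-CD40 phagocytes the value was 540, against 181 in B cells of that library. Among phagocytes with no UMI of any B, T or NK cell marker, 260 and 862 cells, Ltb was at 15.1 and 9.66 CPM, a ratio of 0.64 (0.38 to 1.13) whose interval spans 1.

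In neutrophils Ltb was 1.43 times as high in the anti-CD40 library (1.19 to 1.73), at 160 and 403 UMIs. Beside these, the neutrophils held 126 isotype and 5 anti-CD40 UMIs of B cell markers. With droplets of 2 classes put in the class with the higher marker share the ratio was 0.72, so no direction is given for Ltb in neutrophils. In NK cells Ltb was 64.1 CPM in the isotype and 156 CPM in the anti-CD40 library, a ratio of 2.44 (1.72 to 3.54). T cell markers in these NK cells were at 439 and 570 CPM, and Ltb stood at 146 and 274 UMIs per 1000 T cell marker UMIs, against 96.6 and 70.2 in T cells. When Leiden clusters replaced the gates, the NK ratio of Ltb was 0.49, so its direction depends on how NK cells are drawn.

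Tnfsf10 (chr3:27317077-27339665) encodes TRAIL, a ligand that can induce apoptosis and that interferons are known to induce. It was highest in endothelial cells in both libraries, at 113 CPM (73.9 to 166) in the isotype and 527 CPM (459 to 601) in the anti-CD40 library. In the isotype library the order went on with T cells at 26.0 CPM (7 UMIs) and NK cells at 8.22 CPM (5 UMIs), while 1064 phagocytes held 19 UMIs and neutrophils and conventional dendritic cells 0. In the anti-CD40 library NK cells had 55.3 CPM (42.6 to 70.6), T cells 47.4 CPM (34.8 to 63.0) and phagocytes 22.8 CPM (21.2 to 24.5). The ratio was 10.6 (6.71 to 17.6) in phagocytes and 6.73 (2.74 to 21.4) in NK cells.

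The subsets with at least 50 cells in both libraries were all past 1.5-fold higher. Resident macrophages had 16 Tnfsf10 UMIs in the isotype and 261 in the anti-CD40 library, a ratio of 10.8 (6.54 to 19.2). Classical monocytes had 2 and 69 UMIs, and phagocytes of no named subset 1 and 367 UMIs. The UMIs were spread over many cells, 500 of 2768 anti-CD40 phagocytes having at least 1, and the top 10 cells held 6.85% of them. At 1000 UMIs per cell 1 of 920 isotype phagocytes had a Tnfsf10 UMI, under the 0.51% of isotype B cells, while 53 of 2590 anti-CD40 phagocytes, 2.05%, had one. Endothelial markers in phagocytes were at 68.1 CPM in the isotype and 54.4 CPM in the anti-CD40 library, and anti-CD40 phagocytes held 419 Tnfsf10 UMIs per 1000 endothelial marker UMIs, against 24.2 in endothelial cells. Phagocyte markers in NK cells were at 619 and 1267 CPM, and anti-CD40 NK cells held 43.6 Tnfsf10 UMIs per 1000 phagocyte marker UMIs, against 0.88 in phagocytes. Phagocytes with no lymphocyte marker UMI had 0 isotype and 133 anti-CD40 UMIs, at least 9.81-fold higher against a floor of 3 counts.

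With a minimum of 30 cells, set after the data were seen, endothelial cells gave a Tnfsf10 ratio of 4.65 (3.09 to 7.28) from 26 and 221 UMIs in 48 and 73 cells, and T cells one of 1.82 (0.82 to 4.77).

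Promoter sequence is shown for the 3 genes on which the phagocyte results turn: Tnfsf10 and Fas, the members past 1.5-fold higher, and Tnfrsf1b, the member lower in both phagocytes and neutrophils. Sequences are from RefSeq, build GRCm38.p6, read 5′ to 3′ on the gene's strand, up to 250 bases upstream of the annotated start, and capitals mark a match to a motif. A window for motif search ran from 250 bases before to 50 bases after the start, 300 bases in all, and 8 of the 9 members matched the table by symbol. The motifs, searched on both strands, were the gamma-activated site TTCNNNGAA, the interferon-stimulated response element, the AP-1 site TGANTCA and the kappa-B motif. They occur in 8.30%, 3.44%, 7.81% and 4.51% of all 32851 promoter windows of this length. The Tnfsf10 stretch, chr3:27316827-27317076 on the plus strand, held none of them in these letters.
Tnfsf10: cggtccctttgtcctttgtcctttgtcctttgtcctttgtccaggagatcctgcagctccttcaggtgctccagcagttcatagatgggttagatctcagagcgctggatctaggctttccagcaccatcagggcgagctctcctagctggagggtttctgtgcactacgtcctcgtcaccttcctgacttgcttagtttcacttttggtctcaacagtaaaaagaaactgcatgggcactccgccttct
The Fas stretch, chr19:34290409-34290646 on the plus strand, held an AP-1 match and a gamma-activated site match.
Fas: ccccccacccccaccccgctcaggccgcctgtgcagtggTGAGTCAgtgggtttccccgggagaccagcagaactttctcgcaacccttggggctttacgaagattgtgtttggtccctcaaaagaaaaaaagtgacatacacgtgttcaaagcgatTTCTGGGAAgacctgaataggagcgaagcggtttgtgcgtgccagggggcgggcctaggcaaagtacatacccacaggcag
The Tnfrsf1b stretch, chr4:145246871-145247120 on the minus strand, held a gamma-activated site match and, as its last 10 bases, a response element match on the opposite strand.
Tnfrsf1b: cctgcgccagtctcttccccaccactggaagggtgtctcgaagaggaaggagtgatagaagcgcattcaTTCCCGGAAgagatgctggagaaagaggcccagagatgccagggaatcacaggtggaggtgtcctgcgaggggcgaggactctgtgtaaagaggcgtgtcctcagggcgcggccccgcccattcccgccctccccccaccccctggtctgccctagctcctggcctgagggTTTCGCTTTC
A gamma-activated site match thus lay upstream of a gene that was higher and of one that was lower, and the matches are a description of letters only. Over the 10 windows of 8 members, 5 held a gamma-activated site, 2 a response element, 4 an AP-1 site and 2 a kappa-B motif, the last in Ltb and Tnfrsf9.

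Tnfsf12 (chr11:69686240-69696098) encodes TWEAK, the ligand of Tnfrsf12a. Its gene overlaps the annotated Tnfsf13os and the read-through gene Tnfsfm13, so reads may be shared between them. Isotype phagocytes had 149 CPM (141 to 157), fibroblasts 147 CPM (113 to 189), NK cells 118 CPM (92.6 to 149) and endothelial cells 100.1 CPM (63.5 to 150), and each interval in this order overlapped the next. Dendritic cells, T cells, neutrophils and B cells were all between 7.39 and 13.6 CPM. Tnfsf12 thus separated phagocytes, NK cells and stromal cells from the remaining types.

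In anti-CD40 phagocytes Tnfsf12 was at 72.8 CPM (69.9 to 75.8), 2.04-fold lower (1.91 to 2.18). Resident macrophages had 176 and 105 CPM (1.67-fold lower) and classical monocytes 42.0 CPM in the anti-CD40 library (2.02-fold lower), so both subsets were lower. Fibroblasts (147 and 145 CPM) and endothelial cells (100.1 and 102 CPM) gave ratios of 0.98 (0.68 to 1.41) and 1.02 (0.60 to 1.78) with the 30-cell minimum. NK cells were at 118 and 89.8 CPM, a ratio of 0.76 (0.56 to 1.04).

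Tnfsf13b (chr8:10006229-10036000) encodes BAFF, a survival factor for B cells. It was found in phagocytes at 19.9 CPM (17.0 to 23.0) with isotype and 23.0 CPM (21.4 to 24.7) with anti-CD40, and in neutrophils at 26.0 and 19.2 CPM. Fibroblasts were at 11.7 CPM (5 UMIs) and 22.6 CPM (10 UMIs), with intervals that overlapped those of phagocytes. Isotype T cells, NK cells and endothelial cells held 0 UMIs and 436 B cells 4 UMIs. The phagocyte ratio was 1.16 (0.98 to 1.37). Classical monocytes stood apart, with 1 isotype UMI and 39 anti-CD40 UMIs, a ratio of 11.8 with a counting interval of 2.00 to 479, while resident macrophages gave 0.96 (0.75 to 1.23).

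**Figure D2:**
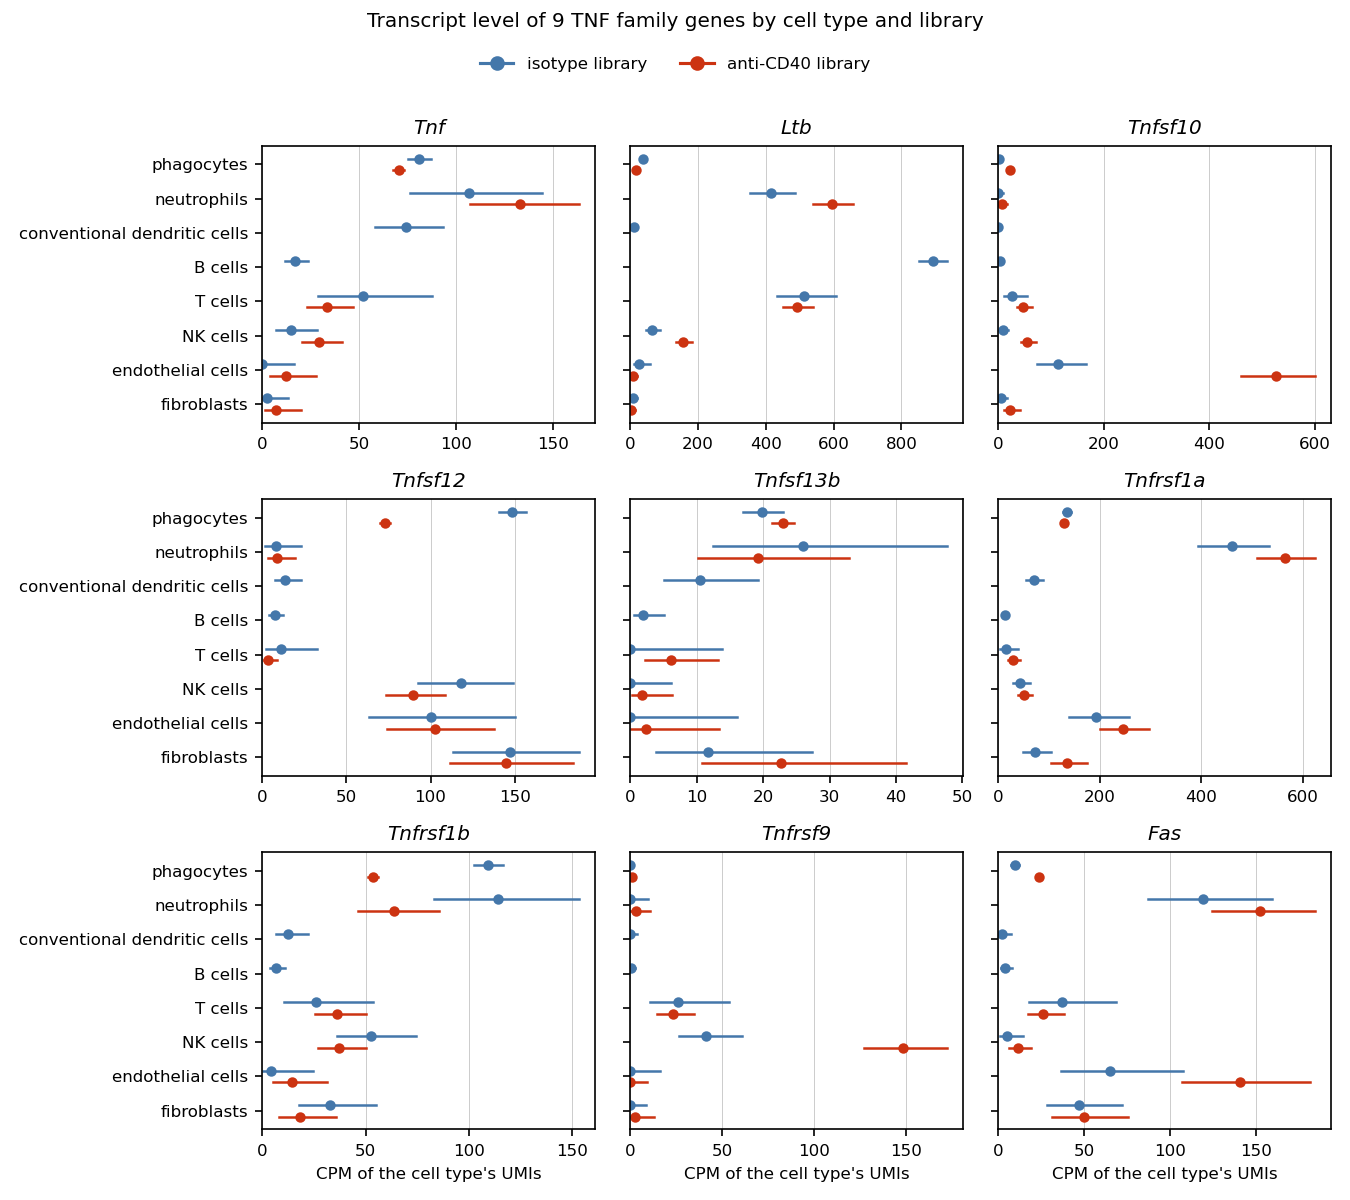
Transcript level (CPM of the cell type's UMIs, linear axis from 0) of 9 TNF family genes in 8 gated cell types; points are library values, bars exact 95% Poisson intervals, and types with under 30 cells in a library are left out. Tnfrsf9 is seen in NK and T cells, Ltb in B cells, T cells and neutrophils, Tnfrsf1a and Fas are highest in neutrophils, and endothelial Tnfsf10 stands at 113 CPM in the isotype and 527 CPM in the anti-CD40 library.

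Among the receptors, Tnfrsf1a (chr6:125349723-125362483) encodes TNFR1, the broadly expressed death-domain receptor for TNF. Neutrophils led and endothelial cells came next in both libraries. Isotype neutrophils had 459 CPM (394 to 532), endothelial cells 192 CPM (139 to 257) and phagocytes 135 CPM (127 to 143), and the last 2 intervals overlapped. In the anti-CD40 library these were 565 CPM (509 to 624), 245 CPM (200.3 to 298) and 130 CPM (126 to 134), with fibroblasts at 136 CPM between the last 2. The ratio was 0.97 (0.91 to 1.03) in phagocytes, 1.19 (0.74 to 1.97) in NK cells and 1.23 (1.03 to 1.48) in neutrophils, all within 1.5-fold. In phagocytes it turned above 1 with TMM (1.18) and median-of-ratios scaling (1.19). Fibroblasts gave 72.5 and 136 CPM, a ratio of 1.87 (1.19 to 2.99) with the 30-cell minimum.

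Tnfrsf1b (chr4:145212368-145246870) encodes TNFR2, the TNF receptor without a death domain, found mostly on leukocytes. Isotype neutrophils had 114 CPM (83.0 to 153) and phagocytes 109 CPM (102 to 116), followed without overlap by NK cells at 52.6 CPM (36.0 to 74.2). In the anti-CD40 library neutrophils had 63.6 CPM (46.0 to 85.6), phagocytes 53.3 CPM (50.9 to 55.9), NK cells 37.1 CPM and T cells 36.3 CPM. The gene was 2.05-fold lower in phagocytes (1.89 to 2.22) and 1.80-fold lower in neutrophils (1.15 to 2.80), and its NK ratio was 0.71 (0.44 to 1.15). In neutrophils TMM scaling gave 1.41-fold lower, within 1.5-fold. Phagocyte markers inside the neutrophil gate were at 2507 CPM in isotype and 3406 CPM in anti-CD40 cells, and their part in the neutrophil values was not tested.

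Among the 5 phagocyte subsets, both kinds of monocyte carried the highest Tnfrsf1b in each library. Nonclassical monocytes, patrolling cells gated on genes such as Ace and Adgre4, had 622 CPM (492 to 775) in 26 isotype cells and 114 CPM (45.8 to 235) in 15 anti-CD40 cells. Classical monocytes had 206 CPM (189 UMIs) and 71.1 CPM (215 UMIs), 2.90-fold lower (2.37 to 3.54). Resident macrophages had 82.5 and 51.4 CPM, 1.61-fold lower (1.41 to 1.83). In phagocytes with no lymphocyte marker UMI the levels were 160 and 63.0 CPM, 2.55-fold lower. At 1000 UMIs per cell, 10.4% of isotype (8.53 to 12.6) and 5.87% of anti-CD40 phagocytes (4.99 to 6.84) had a Tnfrsf1b UMI, against 0.25% of isotype B cells.

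**Figure D3:**
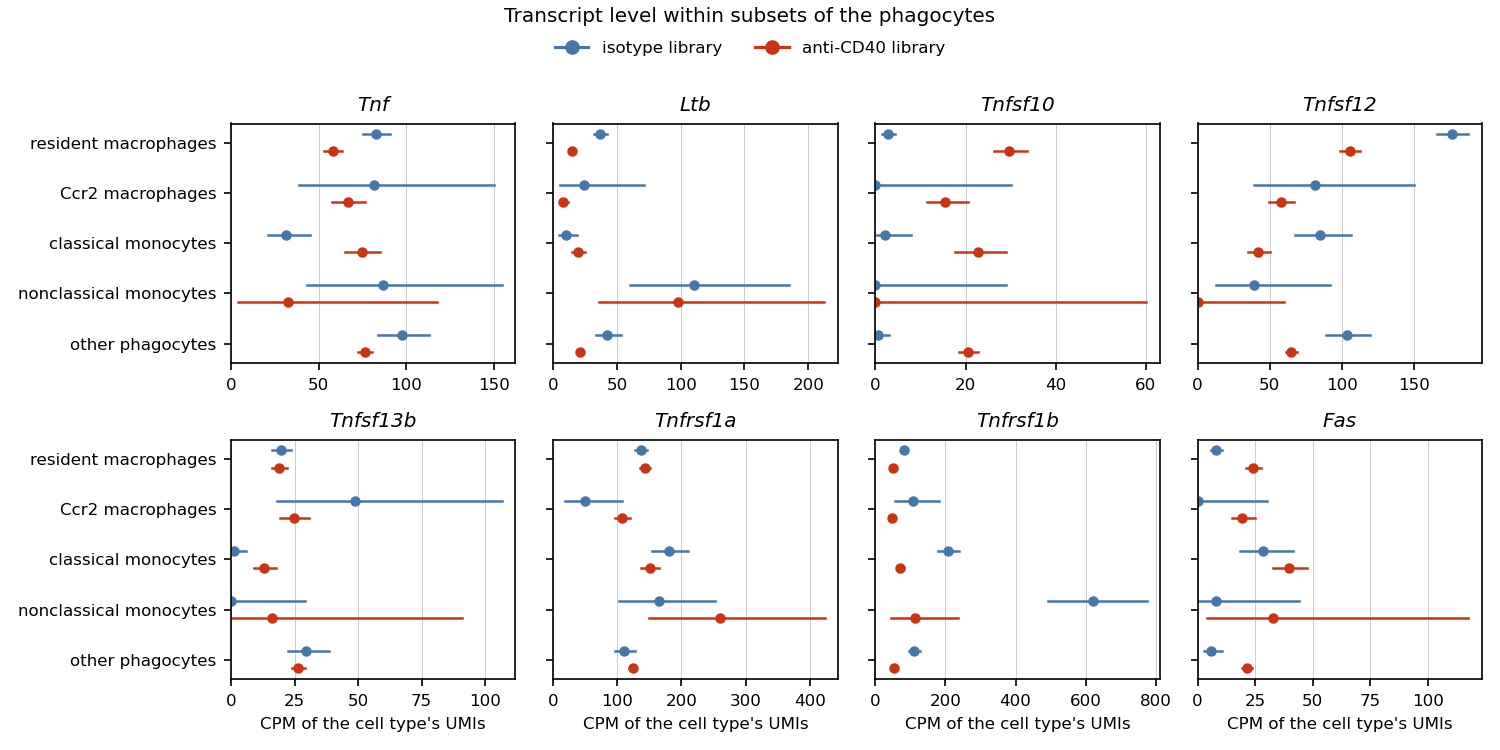
Transcript level (CPM, linear axis from 0) of 8 TNF family genes in 5 subsets of the phagocytes, with points for each library and exact 95% Poisson intervals; the isotype values for Ccr2 macrophages rest on 27 cells and those for nonclassical monocytes on 26 isotype and 15 anti-CD40 cells. Tnf is at 31.6 CPM in isotype and 74.7 CPM in anti-CD40 classical monocytes, and Tnfrsf1b is at 622 CPM in isotype nonclassical monocytes.

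Tnfrsf9 (chr4:150920155-150946104) encodes 4-1BB, a costimulatory receptor of activated T and NK cells. NK cells had 41.1 CPM (26.6 to 60.6) with isotype and 149 CPM (127 to 172) with anti-CD40, from 25 and 172 UMIs, a ratio of 3.62 (2.37 to 5.74). T cells were at 26.0 CPM and 23.2 CPM, but all 7 isotype UMIs came from 1 of 38 cells, so the Poisson interval does not apply there, and the 23 anti-CD40 UMIs came from 8 of 157 cells. At 1000 UMIs per cell, 3.28% (0.90 to 8.18) of isotype NK cells, 4 of 122, had a UMI. Of anti-CD40 NK cells 12.3% (7.34 to 19.0), 17 of 138, had one, and the intervals overlapped. Among phagocytes 0 of 920 and 0 of 2590 had one. In anti-CD40 NK cells the top 9 of 139 cells held at least 50% of the UMIs and 1 cell held 17. The counting intervals of the Tnfrsf9 level and ratio in NK cells are therefore too narrow.

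The 22 Tnfrsf9 UMIs in anti-CD40 phagocytes came with NK cell markers, which summed to 39.8 CPM in isotype and 127 CPM in anti-CD40 phagocytes. There were 5.28 Tnfrsf9 UMIs per 1000 NK marker UMIs in these phagocytes and 7.88 in NK cells (6.75 to 9.15). Among phagocytes without any lymphocyte marker UMI, 0 isotype and 1 anti-CD40 UMIs were found.

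Fas (chr19:34290647-34327775) encodes the death receptor CD95. Neutrophils were first in both libraries, at 119 CPM (87.4 to 159) and 152 CPM (124 to 185), and endothelial cells second, at 65.3 CPM (36.6 to 108) and 141 CPM (107 to 181), with overlapping intervals each time. Phagocytes had 9.53 CPM from 84 UMIs with isotype and 23.7 CPM from 774 UMIs with anti-CD40, a ratio of 2.48 (1.98 to 3.15). Neutrophils gave 1.28 (0.89 to 1.85), and endothelial cells 2.15 (1.21 to 4.09) with the 30-cell minimum.

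In resident macrophages Fas was at 7.89 and 24.2 CPM, a ratio of 3.06 (2.22 to 4.31), and in classical monocytes at 28.3 and 39.7 CPM, a ratio of 1.40 (0.91 to 2.23). Neutrophil markers, which mark the type with the highest Fas, were at 163 CPM in isotype and 356 CPM in anti-CD40 phagocytes. Anti-CD40 phagocytes held 66.5 Fas UMIs per 1000 neutrophil marker UMIs and anti-CD40 neutrophils 0.93. At 1000 UMIs per cell 1.09% of isotype (0.52 to 1.99) and 2.20% of anti-CD40 phagocytes (1.67 to 2.84) had a Fas UMI, against 0.51% of isotype B cells.

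Counted by cell type, neutrophils had 0 members past 1.5-fold higher and 1 of 5 lower (Tnfrsf1b), beside 19.8% and 32.9% of 2323 genes. With TMM scaling that became 4 higher (Ltb, Fas, Tnfrsf1a and Tnf) and 0 lower, beside 694 higher and 410 lower genes of 2459, so the neutrophil calls depend on the scaling. NK cells had 4 of 7 members past 1.5-fold higher (Tnfsf10, Tnfrsf9, Ltb and Tnf) and 0 lower, beside 17.0% and 21.1% of 4506 genes, and the same 4 with TMM scaling, beside 1216 higher and 581 lower genes of 4741. The fourth of these, Tnf, rested on 9 and 34 UMIs, a ratio of 1.99 (0.93 to 4.71) whose interval spans 1. Phagocyte markers in the NK gate were given above, and Tnf stood at 23.9 and 23.2 UMIs per 1000 phagocyte marker UMIs in NK cells, against 2.91 and 2.71 in phagocytes.

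Antibody tags gave a second readout for 4 of the 9 members: CD120b (Tnfrsf1b), CD95 (Fas), CD137 (Tnfrsf9) and CD253 (Tnfsf10). Tag levels are UMIs of the tag scaled to 1000000 tag UMIs of the cell type (tag CPM), read against 9 control antibodies, of which the highest reached 310 tag CPM in isotype phagocytes. In phagocytes CD95 was at 433 tag CPM in the isotype and 1183 in the anti-CD40 library, 1.40 and 4.01 times the highest control, a ratio of 2.73 (2.60 to 2.87). Tag and transcript of Fas were thus both higher in anti-CD40 phagocytes. CD95 was the 1 member tag of 4 past 1.5-fold higher there, beside 20.6% of 189 tags, and it also gave ratios of 1.81 (1.51 to 2.16) in neutrophils and 2.07 (1.46 to 2.99) in NK cells. In those comparisons 25.7% of 175 and 28.7% of 160 tags were past 1.5-fold higher. Centred log ratios per cell, a second scaling of the tags, gave CD95 differences of 0.63 in phagocytes, 0.30 in neutrophils and 0.19 in NK cells, in the same direction.

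The other tags did not move with their transcripts in phagocytes, and CD253 and CD137 were near or below the highest control. CD120b was at 573 and 599 tag CPM, or 1.85 and 2.03 times the highest control. Its ratio was 1.05 (0.997 to 1.10), where the transcript was 2.05-fold lower. CD253 was at 516 and 323 tag CPM, a ratio of 0.63 (0.59 to 0.66), where the Tnfsf10 transcript was 10.6-fold higher. These tag levels were 1.67 and 1.10 times the highest control. Isotype neutrophils, with 0 Tnfsf10 UMIs, had CD253 at 3.11 times their highest control. The tag is therefore not read as a measure of Tnfsf10 protein. Of the 4 member tags CD253 was the 1 past 1.5-fold lower in phagocytes, beside 24.9% of 189 tags. The same held in neutrophils (328 and 210 tag CPM), beside 18.3%. None of the 4 was past 1.5-fold lower in NK cells, beside 37.5%. The centred log ratio of CD253 differed by -0.18 in phagocytes. CD137 was at 0.96 and 0.71 times the highest control in phagocytes and so was not above background.

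By cell type, CD120b was highest in NK cells, at 4991 and 4316 tag CPM or 29.2 and 20.1 times the highest control. T cells followed at 9.30 and 18.7 times, whereas neutrophils, first in the order of Tnfrsf1b transcript, were at 2.91 and 3.58 times. Tag and transcript thus ranked the cell types differently for this receptor. In isotype fibroblasts the highest control antibody reached 1781 tag CPM, and fibroblast tags are not read. CD137 was at 810 and 1145 tag CPM in NK cells, a ratio of 1.41 (1.15 to 1.75), beside a transcript ratio of 3.62. These levels were 4.74 and 5.32 times the highest control. Endothelial cells, with 0 Tnfrsf9 UMIs, had CD137 at 890 and 401 tag CPM, or 3.71 and 2.35 times. In the isotype library this tag therefore did not separate cells with the transcript from cells without it. CD253 in endothelial cells, the type with the highest Tnfsf10 transcript, was at 662 and 404 tag CPM. In the same cells CD95 was at 2325 and 1240 tag CPM, a ratio of 0.53, although centred log ratios per cell gave a difference of 0.46 in the other direction, so no direction is given there.

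**Figure D4:**
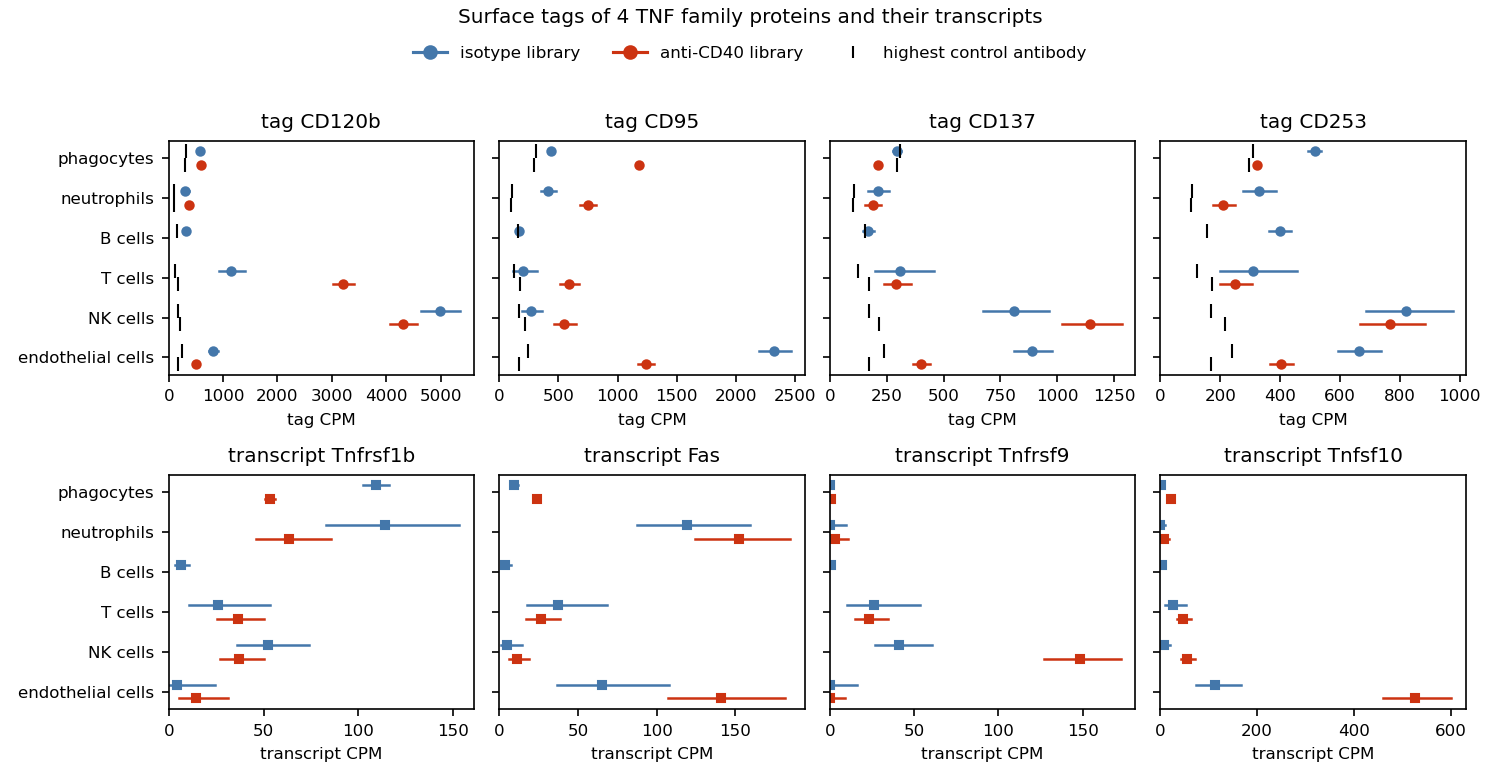
Surface tags (upper row, tag CPM) and the matching transcripts (lower row, CPM) for CD120b and Tnfrsf1b, CD95 and Fas, CD137 and Tnfrsf9, and CD253 and Tnfsf10 in 6 cell types, with a point per library, exact 95% Poisson intervals and, for tags, a tick at the highest control antibody; axes are linear from 0. CD95 is higher in anti-CD40 phagocytes (1183 against 433 tag CPM), and CD120b is highest in NK cells.

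The remaining family was described from lists of 13 other ligands and 24 other receptors. In phagocytes 6 of the other ligands had at least 30 UMIs: Tnfsf15 (1 and 134 UMIs) and Fasl (12 and 94 UMIs) were past 1.5-fold higher with anti-CD40, and Tnfsf13, Tnfsf9 and Tnfsf8 past 1.5-fold lower. Tnfsf13, which encodes APRIL, was at 55.3 and 36.0 CPM. With TMM scaling none of these 3 was past 1.5-fold lower. The median log2 ratio of the 6 ligands was -0.09, beside -0.11 for all genes, of which 11.3% were higher and 23.4% lower. Fasl was highest in isotype NK cells, at 194 CPM, and NK cell markers in phagocytes summed to 39.8 and 127 CPM. Their part in the Fasl counts of phagocytes was not tested.

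Of the other receptors 14 were measured, 2 past 1.5-fold higher and 7 lower, with a median log2 ratio of -0.37, where 11.3% and 23.4% of all genes were called. With TMM scaling the split was 3 higher and 5 lower, beside 20.1% and 12.8%. Cd40, the target of the treatment, was at 21.8 and 88.9 CPM, a ratio of 4.08 (3.53 to 4.75), and Tnfrsf14 at 1.59 and 4.47 CPM. The tags for both were also higher in anti-CD40 phagocytes, CD40 at 2510 and 7368 and CD270 (Tnfrsf14) at 11651 and 31710 tag CPM. This was not particular to phagocytes: the CD40 and CD270 tag ratios were 2.84 and 1.79 in NK cells and 1.93 and 1.29 in neutrophils. In T cells, with the 30-cell minimum, they were 1.93 and 0.89. Tnfrsf14 reached at most 4.93 CPM (3 UMIs) in any type with at least 30 cells, while CD270 was at 24542 tag CPM in isotype neutrophils. The receptors with a lower transcript included Tnfrsf13c, the BAFF receptor of B cells, at 8.28 and 0.49 CPM, beside the B cell marker sums of 416 and 33.2 CPM given above. Tnfrsf17 was at 8.17 and 1.81 CPM, and isotype phagocytes, with 72 UMIs, had its highest level among types with at least 30 cells. Tnfrsf21 was at 41.0 and 21.9 CPM. The remaining lower receptors were highest in other types: Tnfrsf13b in isotype B cells, Cd27 and Tnfrsf25 in isotype T cells, and Tnfrsf23 in isotype neutrophils. T cell markers in phagocytes were at 40.5 CPM in the isotype and 54.9 CPM in the anti-CD40 library. The part of transcripts from other cell types in the count of lower receptors was not tested.

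**Figure D5:**
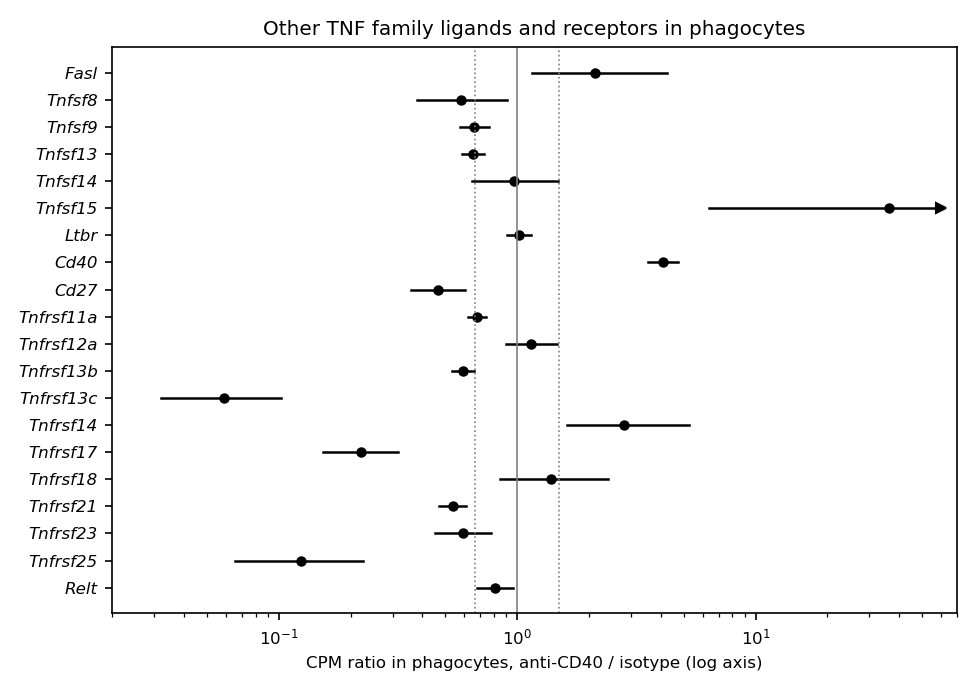
Ratio of the anti-CD40 to the isotype level (CPM) in phagocytes for 20 other TNF family genes with at least 30 UMIs in a library, on a log axis; points are ratios, bars exact 95% counting intervals (the arrow runs past the axis), and dotted lines mark 1.5-fold. Cd40 (4.08) and Tnfrsf14 (2.81) lie to the right, and Tnfrsf13c (0.06) and Tnfrsf25 (0.12) farthest to the left. Among the gated types Tnfrsf13c was highest in B cells and Tnfrsf25 in T cells.

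Downstream of the receptors, all 55 genes of TNF signalling and processing were measured in phagocytes, and 6 were past 1.5-fold higher and 12 lower in the anti-CD40 library, with a median log2 ratio of -0.15. Over all genes measured in phagocytes 11.3% were higher and 23.4% lower, so both counts are near the background. With TMM scaling the split was 16 higher and 3 lower, beside 20.1% and 12.8% of all genes. The highest log2 ratios, with a prior of 10 CPM, were those of Traf1, an adaptor induced by NF-κB (34.7 and 105 CPM), Mlkl, the executor of necroptosis (2.84 and 23.0 CPM), and Ripk3, the kinase that activates it (9.08 and 28.5 CPM). The lowest were those of Zfp36 and Zfp36l1, which promote decay of Tnf and other transcripts (624 and 284 CPM for Zfp36), and Map3k8 (77.5 and 41.8 CPM). Zfp36 is also an early gene, and Fos was 2.01-fold and Jun 2.67-fold lower in the same phagocytes, whose part was not tested.

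Of 30 TNF and NF-κB target genes 27 were measured in phagocytes, and 8 were past 1.5-fold higher and 8 lower, with a median log2 ratio of -0.09. Vcam1, an adhesion molecule, was at 7.04 and 92.6 CPM, the transcription factor Irf1 at 84.5 and 334 CPM, and Sod2, a mitochondrial antioxidant enzyme, at 68.5 and 134 CPM. Ier3 was at 373 and 122 CPM, the activation marker Cd83 at 162 and 58.7 CPM, and the AP-1 subunit Junb at 1225 and 525 CPM. These counts stand beside 11.3% higher and 23.4% lower of all genes measured in phagocytes, and the TMM split of 10 higher and 6 lower beside 20.1% and 12.8%. In NK cells 11 of 19 measured target genes were past 1.5-fold higher and 1 lower. The higher ones included Il1b, Cxcl2 and Ccl2, which are genes of myeloid cells. Phagocyte markers in NK cells summed to 619 and 1267 CPM, and neutrophil markers to 98.6 and 480 CPM. Over all genes measured in NK cells 17.0% were higher and 21.1% lower. In neutrophils 4 of 21 were past 1.5-fold higher and 8 lower, beside 19.8% and 32.9% of all genes, or 6 and 4 with TMM scaling, beside 28.2% and 16.7%.

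For context, 6 interferon-induced genes were measured, and all 6 were higher in anti-CD40 phagocytes, from Irf1 (ratio 3.95) to Gbp2 (18.5 and 684 CPM, ratio 37.0). They were chosen with earlier results of these data known, so the count is no support for a cause. Irf1 is also among the target genes above. Over all genes measured in phagocytes 11.3% were past 1.5-fold higher. Tnfsf10 and Fas, with ratios of 10.6 and 2.48, were higher in the same phagocytes, and Tnfrsf1b was lower. A link between the members and the interferon-induced genes was not tested.

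Genes most like each member were sought by the correlation of log2(CPM + 10) over phagocytes, neutrophils and NK cells of both libraries, 6 points in all, among 9605 genes with at least 200 UMIs. The points share library and depth, and with so few of them high coefficients are common, so the names are a description. The best Pearson r ran from 0.987 (Ltb and Tnfsf10) to 1.00 (Tnfsf13b), with Alox5ap, Ncf1 and Pirb for Tnf, Arpc5, Prdx6 and Hist1h2be for Ltb, and Traf2, Il12rb1 and Hells for Tnfsf10. Tnfsf12 was followed most closely by Ube2d1, Zfp961 and Fxr1, and Tnfsf13b by Ctnnbip1, Fth1 and Tbc1d8. For the receptors the names were Fam217b, Mcemp1 and Mefv (Tnfrsf1a), Map1lc3a and Cd200 (Tnfrsf1b), Thy1, Gpx8 and Myo6 (Tnfrsf9), and Cd300lf, Acod1 and Fpr1 (Fas).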

How the data were processed

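Raw UMI counts per gene and antibody tag were deposited by the authors as 1 matrix per library, with no normalization. Cell Ranger 6.0.1 wrote these files, per the file headers, whereas the submitters' processing notes list Cell Ranger 3, Seurat 3 and the builds mm10 and GRCh38 with no role given. Reads were taken from the 5′ end of transcripts, per the labels' protocols, so counts do not scale with gene length. The kept cells held 22687435 UMIs in the isotype and 47485251 in the anti-CD40 library.

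Marker sums per 10000 UMIs defined the cell types, with thresholds of 50 for phagocytes and neutrophils, 20 for B and NK cells, 10 for T cells and conventional dendritic cells, 40 for endothelial cells and 60 for fibroblasts. Thresholds were set after the scores were seen. The 9 members and all gene lists were chosen with earlier results of these data known. Doublets were handled only by setting mixed droplets apart. UMIs were summed per cell type and library and scaled to CPM. Beyond the members, the 3 highest and 3 lowest ratios of each list past 1.5-fold in phagocytes were named, and 1 gene of the likeness search is not reported here. Log2 ratios used a prior of 10 CPM. Shares were taken after thinning each cell to 1000 UMIs, which left out 144 isotype and 178 anti-CD40 phagocytes. The ratio calculation was tested on simulated data. Alternatives were other scalings, mitochondrial limits, gates, Leiden clusters (scanpy 1.11.5), equal weights per cell, thinning and other priors. Chosen after seeing the data were the 30-cell minimum, phagocytes without lymphocyte markers and the barcodes left out by the filter on genes per cell and mitochondrial UMIs. Python 3.11.15 with numpy 2.4.6 and scipy 1.17.1 was used.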

Additional observations from a re-analysis of the deposited data

Results flagged for a closer look

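Of the members, 3 had ratios on opposite sides of 1 in 2 cell populations, and the difference was not tested because each treatment is 1 library. Tnf was higher in anti-CD40 classical monocytes (ratio 2.36) and lower in resident macrophages (0.70), 3.37 times apart. The shares of cells with a Tnf UMI at equal depth, given above, had overlapping intervals between the libraries in both subsets. Ltb was higher in NK cells (2.44) and lower in resident macrophages (0.40), 6.15 times apart, beside B cell markers at 468 CPM in isotype and 35.3 CPM in anti-CD40 resident macrophages. With Leiden clusters in place of gates the NK ratio of Ltb was 0.49, so the contrast depends on how NK cells are drawn. Tnfrsf1a had ratios of 1.23 in neutrophils and 0.83 in classical monocytes, 1.48 times apart and both within 1.5-fold. The TMM factor of phagocytes, 1.23, is larger than the distance of the monocyte ratio from 1, so no direction is given for it.

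The barcodes left out by the filter on genes per cell and mitochondrial UMIs, 2350 isotype and 2809 anti-CD40, entered no comparison above. They were taken as 1 ungated set per library. In them Tnfsf10 was 7.57 times as high in the anti-CD40 library (4.54 to 13.5), Fas 2.62 times (1.74 to 4.05) and Tnfsf13b 1.52 times (1.07 to 2.18). The makeup of these sets by cell type was not examined.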

How the results depend on the processing

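The member ratios in phagocytes were recomputed under other settings. The counts of 2 members past 1.5-fold higher and 3 lower held under both scalings. Ranges over the settings were 8.53 to 19.9 for Tnfsf10, 2.13 to 3.07 for Fas, 0.46 to 0.61 for Tnfsf12 and 0.39 to 0.60 for Tnfrsf1b. Values that moved by more than counting error were as follows. TMM scaling gave 1.07 for Tnf, 0.61 for Ltb, 0.60 for Tnfsf12, 1.42 for Tnfsf13b, 1.18 for Tnfrsf1a and 0.60 for Tnfrsf1b. Median-of-ratios scaling gave 1.08, 0.61, 0.61, 1.43, 1.19 and 0.60 in the same order. Under 5% mitochondrial UMIs and at least 500 genes, Tnf was 0.98, Ltb 0.62 and Tnfrsf1b 0.42. The stricter gate gave 0.36 and Leiden clusters 0.64 for Ltb. Putting mixed droplets in the class with more markers gave 0.24 for Ltb, 0.55 for Tnfsf12, 1.07 for Tnfrsf1a and 0.60 for Tnfrsf1b. Weighting cells equally gave 0.98 for Tnf, 0.41 for Ltb and 0.98 for Tnfsf13b. Thinning to 1000 UMIs gave 19.9 for Tnfsf10, 0.59 for Tnfsf12, 1.05 for Tnfrsf1a and 0.56 for Tnfrsf1b. Phagocytes without lymphocyte marker UMIs, an alternative chosen after seeing the data, gave 1.09 for Tnf, 0.64 for Ltb, 1.43 for Tnfsf13b, 0.81 for Tnfrsf1a and 0.39 for Tnfrsf1b. The Leiden setting gave 0.49 for Ltb in NK cells, the 1 value past 1.5-fold that turned direction, and no neutrophil value, as its clusters held no neutrophil class. Among values within 1.5-fold outside phagocytes, others crossed 1 as well. With mixed droplets assigned, Ltb in neutrophils was 0.72. The looser gate gave 0.99 for Tnf in neutrophils, Leiden clusters 1.06 for Tnfsf12 in NK cells, and thinning 0.63 for Tnfrsf1a and 1.41 for Tnfrsf1b in NK cells. Tnfrsf9 in phagocytes, a bound, has no value with equal weights, after thinning or without lymphocyte markers. Of the 111 comparisons of phagocyte results with an alternative 78 stayed within counting error and 33 moved, and of the 483 others 362 stayed. The causes were not tested.

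Depth limits Tnfrsf9, Tnfsf10 and Tnfsf13b most: several types held 0 to 10 UMIs, and with 38 T cells, 37 fibroblasts and 48 endothelial cells in the isotype library small differences were not detectable. No paired analysis was possible because each treatment is 1 library of pooled hearts.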

Other observations

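Other family members are given here by the type with their highest level, among types with at least 30 cells. Phagocytes held UMIs of all 13 other ligands and of 21 of the 24 other receptors. Cd40lg was highest in isotype T cells at 59.5 CPM (16 UMIs in 38 cells), Cd27 in the same cells at 223 CPM, and Tnfrsf4 and Tnfrsf18 in anti-CD40 T cells at 92.8 and 101 CPM. Fasl was highest in isotype NK cells at 194 CPM, and its NK ratio was 0.81 (0.64 to 1.03), whereas Cd27 was at 100.2 and 36.3 CPM in NK cells and Tnfsf14 at 49.3 and 9.50 CPM. Tnfrsf13b and Tnfrsf13c were highest in isotype B cells, at 160 and 265 CPM. Neutrophils held the highest Tnfsf14 (101 CPM), Tnfrsf23 (90.8 CPM) and Relt (98.6 CPM), all in the isotype library, and Ltbr (66.5 CPM in the anti-CD40 library), the receptor of lymphotoxin. Fibroblasts held the highest Tnfrsf12a (39.8 CPM from 17 UMIs) and Eda (32.8 CPM from 14 UMIs). Tnfsf9 was highest in isotype conventional dendritic cells (72.0 CPM), Tnfsf13 (55.3 CPM), Tnfrsf11a (78.3 CPM) and Tnfrsf21 (41.0 CPM) in isotype phagocytes, and Cd40 in anti-CD40 phagocytes. Edar and Tnfrsf11b had 0 UMIs in the types with at least 30 cells.

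Droplets with markers of 2 classes held from 30.2% (Tnfsf10) to 51.4% (Ltb) of the isotype UMIs of 8 members, and 1 of 37 UMIs, or 2.70%, of Tnfrsf9. For Fas they held 36.9% in the isotype and 29.8% in the anti-CD40 library. Droplets with phagocyte and neutrophil markers, 92 isotype and 309 anti-CD40, gave a Tnfsf10 ratio of 5.91 (2.44 to 18.7), a Fas ratio of 2.25 (1.59 to 3.26) and a Tnfrsf1b level 1.78-fold lower (1.45 to 2.17).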
